A study of Mus musculus with 18 samples.

Results

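The 10 genes described here encode receptors and enzymes that set the level of cyclic AMP (cAMP) in bile duct cells. They are the secretin receptor gene Sctr, the somatostatin receptor gene Sstr2, the bile acid receptor gene Gpbar1, the adenylyl cyclase genes Adcy4, Adcy5, Adcy6 and Adcy9, and the phosphodiesterase genes Pde3a, Pde4b and Pde4d. The genes were listed by name for their known roles and read from the 55401 genes of the count files, where all 10 were found. Each was followed across 18 RNA-seq libraries of mouse primary cholangiocytes, the epithelial cells lining the bile ducts, and its level is given in CPM, its count scaled to the size of the library.

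Secretin binds its receptor on cholangiocytes and raises cAMP, which opens the chloride channel Cftr, engages chloride-bicarbonate exchange by Slc4a2 and draws water into bile. Somatostatin works against this through receptors that couple to the inhibitory G protein Gi, and somatostatin analogues are given in polycystic liver disease to slow the growth of fluid-filled cysts. Adenylyl cyclases make cAMP and phosphodiesterases break it down, so the enzymes that a cell carries shape how far a hormone signal goes.

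The libraries formed 6 groups of 3. PLD mice treated with CPTH6 and PLD mice treated with ML324 were titled 3 months, and untreated PLD and WT (wild-type) mice were sampled at 2 months and at 1 month after tamoxifen induction. CPTH6 is known to inhibit histone acetyltransferases of the Kat2 type, and ML324 to inhibit histone demethylases of the Kdm4 type. Livers were perfused, parenchymal cells were taken off, and the minced biliary tree was digested and passed over beads with an antibody to Epcam, with purity judged by CK19 staining. The labels name PLD as a genotype without the altered gene, do not say which cells respond to tamoxifen, and give no dose, route or vehicle. They do not state whether the 3 libraries of a group came from separate mice, so p-values here reflect how far these libraries varied, and that variation may be technical. Libraries of treated mice were described apart from the others, so compound, month and library construction cannot be told apart when treated and untreated PLD libraries are compared.

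Libraries held 16345740 to 29277311 counts. Between 22780 and 30332 genes had a count, except in WT replicate 1 at 2 months, with 40039. The defining markers Krt19 and Epcam were present in every library, at 179 to 4008 and 105 to 1015 CPM, and so was the hepatocyte gene Alb at 279 to 5722 CPM. Markers of other cells were also present and differed between groups, and no listed marker was at 0 in any group. The summed level of 12 endothelial markers ran from 177 to 292 CPM after CPTH6, 125 to 627 after ML324, 505 to 1257 in PLD at 2 months, 2123 to 4104 in PLD at 1 month, 6296 to 11440 in WT at 2 months and 1955 to 5245 in WT at 1 month. For 8 smooth muscle markers the sums in the same order of groups were 91.1 to 107, 52.0 to 260, 372 to 454, 1681 to 1931, 3060 to 3589 and 1431 to 11950 CPM. For 12 cholangiocyte markers they were 21890 to 26980, 18620 to 22630, 14180 to 16760, 9571 to 13030, 2693 to 5133 and 3949 to 10610 CPM. WT replicate 3 at 1 month stood apart from its group with a cholangiocyte marker mean of 8.58 log2 CPM against 7.35 and 7.25, and a smooth muscle mean of 5.79 against 8.97 and 8.11. Replicate 2 of the ML324 group had an endothelial mean of 5.35 log2 CPM against 2.73 and 2.89. In bulk RNA, fewer cells of a type and less RNA per cell cannot be told apart.

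The 10 genes did not move as a block. Between PLD and WT at 2 months, 6 of 10 passed the test, 2 higher (Gpbar1 and Pde4d) and 4 lower (Adcy4, Adcy5, Pde3a and Pde4b), in a comparison in which 40% of the 17749 genes tested passed, 19.7% higher and 20.3% lower. Between PLD and WT at 1 month, 2 of 10 passed, both lower (Adcy5 and Adcy9), against 5.03% of all genes, 2.02% of them lower. At 2 months against 1 month within PLD, 3 genes fell (Adcy4, Adcy5 and Pde3a) and Adcy9 rose, against 9.61% of all genes (4.38% higher and 5.23% lower). Within WT, 0 of 10 passed between 2 months and 1 month by edgeR and by DESeq2, against 0.0507% of all genes by edgeR (0.0113% higher and 0.0394% lower), and 3 of the 10 (Adcy4, Adcy9 and Pde4d) had an unadjusted p under 0.05. The median log2 fold change of the 10 genes between PLD and WT was -0.44 at 2 months, beside -0.03 over all genes tested, and -0.59 at 1 month, beside -0.05. A call here is an adjusted p under 0.05 from edgeR's quasi-likelihood test, adjusted over all genes of the comparison, and changes are log2 fold changes ± standard error. Ranges of groups that lie apart are described gene by gene below. Among all genes with a mean of at least 1 CPM they lay apart for 57.7% between PLD and WT at 2 months and 27.7% at 1 month. The share was 47% over time in PLD, 17% in WT, 44.7% after CPTH6, 39.2% after ML324 and 20.3% between the compounds.

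Compared with untreated PLD at 2 months, CPTH6 libraries had 4 of the 9 genes tested lower (Gpbar1, Adcy4, Adcy5 and Pde3a) and Pde4d higher, where 23.1% of 16502 genes passed (9.39% higher and 13.7% lower). ML324 libraries had 3 of 9 lower (Gpbar1, Adcy5 and Pde3a) and 0 higher, where 19.4% passed (7.96% higher and 11.4% lower). Sctr had too few counts for the test. These 2 comparisons share the same 3 untreated libraries, which are also those of the comparison with WT at 2 months, so their values stand side by side and were not set against each other. Between CPTH6 and ML324, edgeR called 0 of 9 genes and 0 of all 15989 tested, with 2008 genes at an unadjusted p under 0.05, and DESeq2 called 0.865% of all genes and 0 of the 9.

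**Figure D1:**
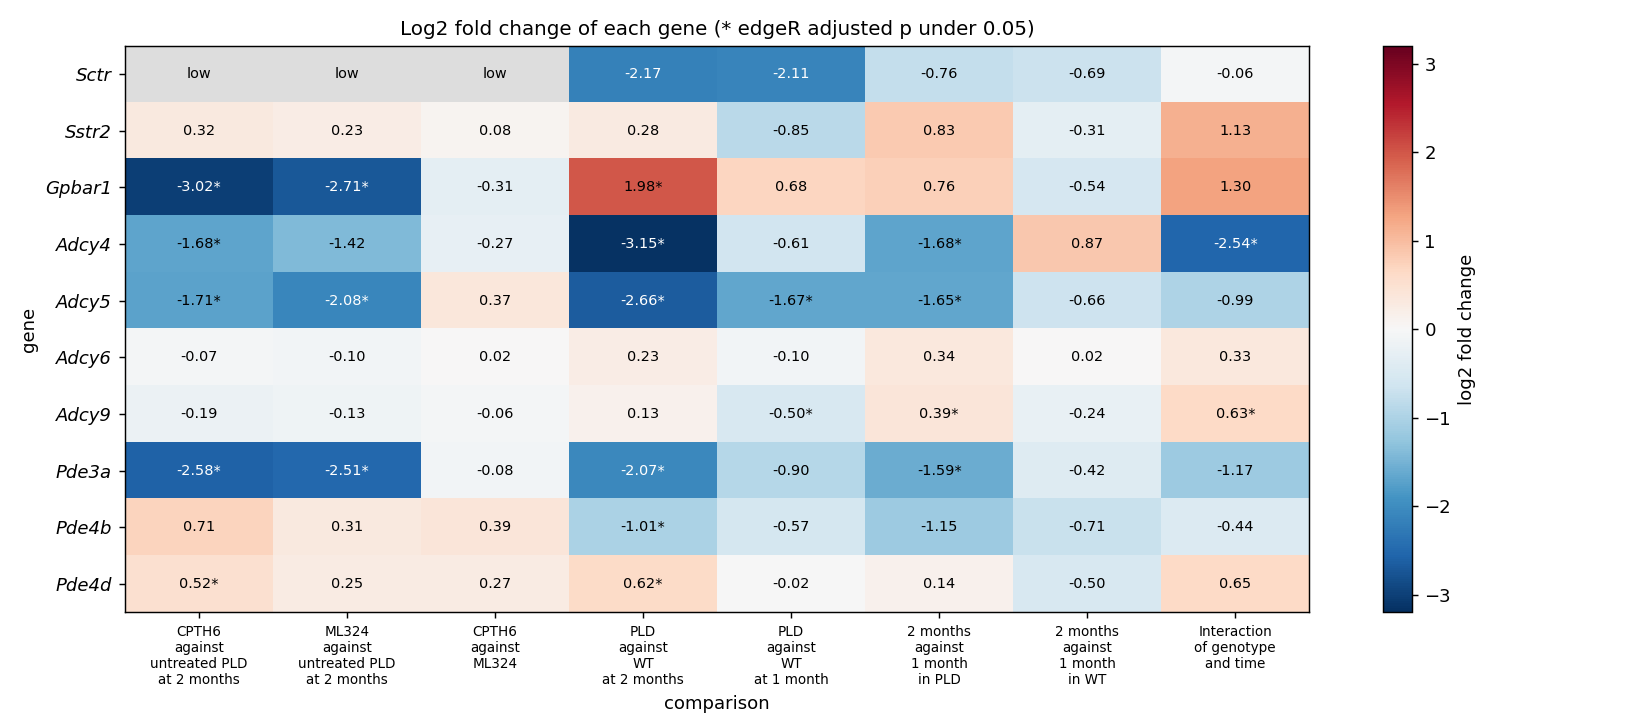
Log2 fold change of each gene (rows) in 8 comparisons (columns), with the value in each cell, colour by size and direction, and an asterisk where edgeR's adjusted p was under 0.05; grey cells marked low had too few counts. Adcy4, Adcy5 and Pde3a carry negative values in PLD against WT and in treated against untreated PLD, while Gpbar1 is positive in the first (1.98 at 2 months) and negative in the second (-3.02 and -2.71).

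Sctr (ENSMUSG00000026387.15, chromosome 1 from 120006894 to 120063536, mm10, plus strand) encodes the secretin receptor, whose signal goes through the stimulatory G protein Gs. It had 1, 0 and 3 counts after CPTH6 and 3, 0 and 7 counts after ML324, against 5, 6 and 20 counts in untreated PLD at 2 months. PLD libraries at 1 month had 27, 13 and 18 counts. WT libraries had 78, 29 and 55 counts at 2 months and 30, 40 and 189 counts at 1 month. The gene was thus near the limit of counting in treated libraries, where a count of 0 allows up to 0.121 CPM in CPTH6 replicate 2 and 0.183 CPM in ML324 replicate 2, limits that cover counting error alone. No fold change is given for them.

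As a level, Sctr averaged 0.0548 ± 0.0624 CPM after CPTH6, 0.199 ± 0.214 after ML324, 0.530 ± 0.397 in PLD at 2 months, 0.929 ± 0.529 in PLD at 1 month, 2.38 ± 0.993 in WT at 2 months and 3.97 ± 4.48 in WT at 1 month (SD, n = 3 each). At 2 months the PLD range lay below the WT range, and the log2 fold change was -2.17 ± 0.86. That change did not pass edgeR (adjusted p = 0.0664), and it passed DESeq2 (adjusted p = 0.0236) and edgeR on the compared libraries alone (adjusted p = 0.0199). With a library left out, it passed in 0 of 6 fits (edgeR adjusted p 0.0591 to 0.189). The groups overlapped at 1 month, with a change of -2.11 ± 0.82 (edgeR adjusted p = 0.149) that was -0.58 without WT replicate 3, the library with 189 counts. 

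Relative to Epcam, an epithelial gene, Sctr was lower in PLD at both times. Epcam itself averaged 910 CPM after CPTH6 and 814 after ML324. Its mean was 487 CPM in PLD and 130 in WT at 2 months, and 400 and 258 at 1 month. The ratio thus carries differences in Epcam as well as in Sctr. The ratio was computed after the values had been seen and is a description. It stood at 0.0488, 0 and 0.142 Sctr counts per 1000 Epcam counts after CPTH6 and at 0.222, 0 and 0.455 after ML324. Untreated PLD libraries had 0.560, 0.770 and 1.85 at 2 months and 3.25, 1.00 and 2.80 at 1 month. WT libraries had 23.9, 11.9 and 17.9 at 2 months and 6.63, 8.14 and 22.9 at 1 month, so the lowest WT ratio lay above the highest PLD ratio at each time. Epithelial markers did not move with Sctr: 10 of 12 cholangiocyte markers passed the test as higher in PLD at 2 months and 0 as lower. Endothelial and smooth muscle markers did fall with it, 12 of 12 and 8 of 8 lower in PLD at 2 months. Per 1000 counts of the endothelial gene Pecam1, Sctr had 1.82 to 13.6 counts in PLD and 0.944 to 3.38 in WT at 2 months, and per 1000 counts of the smooth muscle gene Acta2 it had 2.01 to 5.90 in PLD and 0.927 to 2.46 in WT, so it was not lower in PLD against these genes. The part of these cells in the level of Sctr was not tested.

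Sstr2 (ENSMUSG00000047904.6, chromosome 11 from 113619342 to 113626028, plus strand) encodes a somatostatin receptor that couples to Gi, and did not pass the test in any comparison made. Its mean level was 2.56 ± 0.213 CPM after CPTH6, 2.32 ± 0.834 after ML324, 1.98 ± 0.805 in PLD at 2 months, 1.11 ± 0.407 in PLD at 1 month, 1.602 ± 0.640 in WT at 2 months and 2.04 ± 2.01 in WT at 1 month (SD, n = 3 each). Counts per library ran from 16 to 90, which leaves wide errors: the change between PLD and WT was 0.28 ± 0.64 at 2 months and -0.85 ± 0.65 at 1 month. In TPM, a scale that also divides by gene length, Sstr2 made up 87.0 ± 9.33% of the summed level of the 5 somatostatin receptor genes after CPTH6, 85.6 ± 7.46% after ML324, 81.1 ± 13.2% in PLD at 2 months, 67.1 ± 10.9% in PLD at 1 month, 38.3 ± 20.8% in WT at 2 months and 52.3 ± 26.7% in WT at 1 month. Beside it, Sstr4 had 1 count over the 3 PLD libraries and 79 over the 3 WT libraries at 2 months. The ligands were scarce: Sst had 5 counts in PLD and 29 in WT at 2 months, and secretin itself (Sct) had 43 in PLD and 18 in WT.

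The promoter of Sstr2 is shown because it held the palindromic cAMP response element, the sequence bound by Creb, a transcription factor that cAMP activates. RefSeq's promoter table for GRCm38.p6 was matched by symbol for Sstr2, Gpbar1, Adcy4, Adcy5, Adcy9, Pde4b and Pde4d, 7 of the 10 genes, and the 250 bases before each start were searched on both strands for TGACGTCA and for its core TGACG, which the full element contains. The full element lay in 508 of 32851 promoters (1.55%) and the core in 5836 (17.8%). In Sstr2 the full element began 58 bases before the start, where 2 overlapping cores, on opposite strands, make it up; capitals mark the match in the window at chr11:113619077-113619326, plus strand.
Sstr2 promoter: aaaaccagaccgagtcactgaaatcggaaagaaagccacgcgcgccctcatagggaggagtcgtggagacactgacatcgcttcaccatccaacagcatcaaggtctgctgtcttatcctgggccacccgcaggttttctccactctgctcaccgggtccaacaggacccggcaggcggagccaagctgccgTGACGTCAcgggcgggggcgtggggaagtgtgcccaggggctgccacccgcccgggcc
A match says that the letters are there and nothing about binding in these cells, and Sstr2 itself did not change beyond its errors.

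Gpbar1 (ENSMUSG00000064272.3, chromosome 1 from 74278550 to 74279624, plus strand) encodes a membrane receptor for bile acids, also called Tgr5, that is known in cholangiocytes and in macrophages. It was higher in PLD than in WT at 2 months and lower after either compound. Gpbar1 stood at 0.999, 0.767 and 0.491 CPM after CPTH6 and at 0.228, 1.28 and 1.21 CPM after ML324. In untreated PLD it had 6.23, 2.39 and 9.29 CPM at 2 months and 3.36, 3.12 and 4.12 CPM at 1 month. WT libraries had 1.63, 1.51 and 1.26 CPM at 2 months and 3.54, 1.85 and 1.26 CPM at 1 month. At 2 months the 3 PLD libraries lay above the WT libraries and above the treated ones, and replicate 2 was the lowest of them, while at 1 month the genotypes overlapped.

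The change in Gpbar1 was 1.98 ± 0.48 between PLD and WT at 2 months (edgeR adjusted p = 0.00806) and 0.68 ± 0.47 at 1 month (adjusted p = 0.401). It was -3.02 ± 0.63 after CPTH6 (edgeR adjusted p = 0.00845) and -2.71 ± 0.63 after ML324 (adjusted p = 0.0167), both against untreated PLD at 2 months. The ML324 call was lost without PLD replicate 3, at an adjusted p of 0.0588. Macrophage markers moved the other way between genotypes, with 4 of 10 lower and 1 higher in PLD at 2 months, and fell with Gpbar1 after the compounds, 4 of 9 lower after CPTH6 and 5 of 9 after ML324. Their summed level was 548 to 678 CPM after CPTH6, 494 to 569 after ML324, 745 to 1276 in PLD at 2 months, 577 to 753 in PLD at 1 month, 1106 to 1174 in WT at 2 months and 709 to 1447 in WT at 1 month. Gpbar1 had 93.4 to 213 counts per 1000 counts of the macrophage gene Adgre1 in PLD at 2 months and 109 to 243 in PLD at 1 month, against 14.5 to 31.0 in WT at 2 months and 18.9 to 29.2 in WT at 1 month. After treatment the ratios were 33.2 to 75.5 with CPTH6 and 19.8 to 177 with ML324, so the ML324 range overlapped that of untreated PLD. Cholangiocyte markers rose with Gpbar1 between genotypes at 2 months, 10 of 12 higher with a median of 2.07. Per 1000 counts of Epcam, Gpbar1 had 5.90 to 17.4 counts in PLD and 8.13 to 14.4 in WT at that time, so the genotypes lay apart in the ratio to Adgre1 and overlapped in the ratio to Epcam. After treatment the ratio to Epcam was 0.570 to 1.17 with CPTH6 and 0.296 to 1.73 with ML324, below that of untreated PLD. Cholangiocyte markers did not fall with Gpbar1 there, with 6 of 12 higher after CPTH6, 1 of 12 higher after ML324 and 0 lower after either. Stellate cell and fibroblast markers did fall there, 12 of 12 lower after either compound, with medians of -3.52 after CPTH6 and -2.96 after ML324. The medians of macrophage markers were -0.72 and -0.80. Between genotypes at 2 months stellate cell and fibroblast markers went against Gpbar1, with 5 of 12 lower in PLD and 0 higher. The part of macrophages, of cholangiocytes and of stellate cells and fibroblasts in these changes was not tested.

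**Figure D2:**
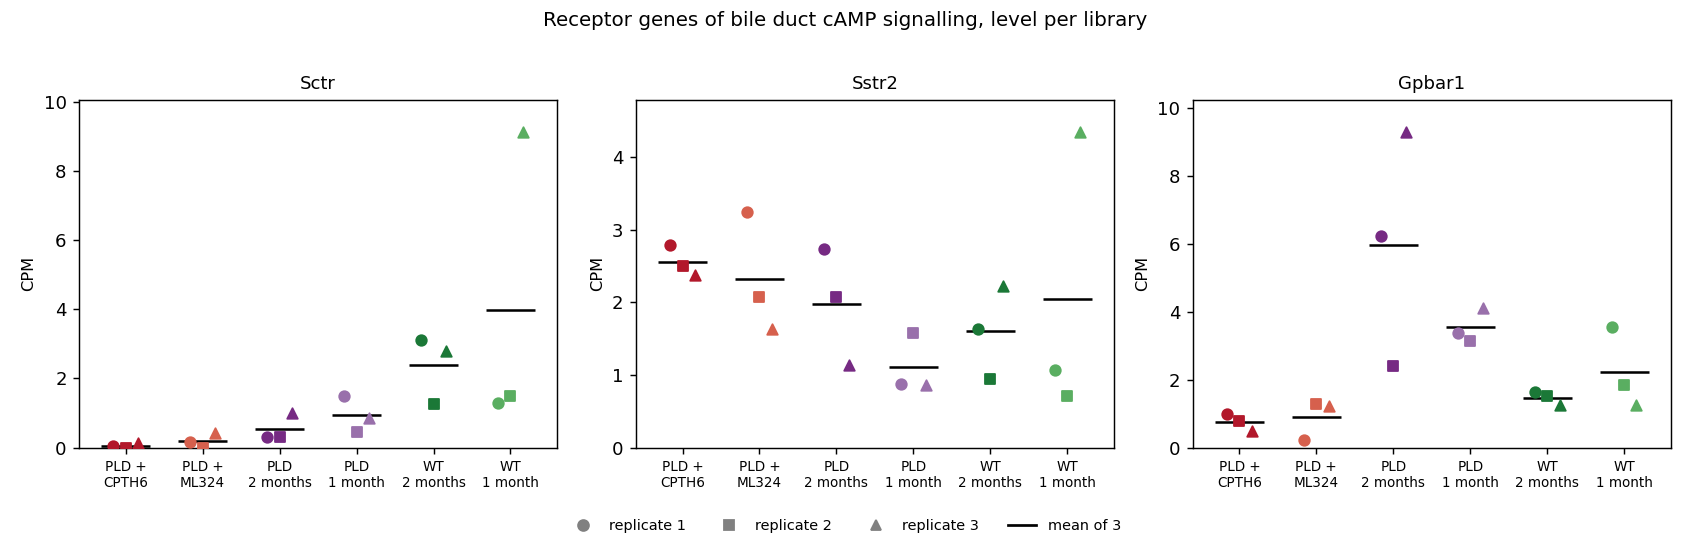
Level in CPM (vertical axes, from 0) of the receptor genes Sctr, Sstr2 and Gpbar1 in the 6 groups (horizontal axes), with a point per library shaped by replicate number and a line at the mean of 3. Sctr is lowest after treatment and highest in WT replicate 3 at 1 month (9.15 CPM), the groups of Sstr2 overlap, and Gpbar1 is highest in untreated PLD at 2 months.

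Adcy6 (ENSMUSG00000022994.9, chromosome 15 from 98589973 to 98610076, minus strand) encodes a cyclase that calcium inhibits and that is known in cholangiocyte cilia. It was the most abundant of the 10 cyclase genes per unit length on average in every group except WT at 2 months, where Adcy4 was slightly higher, and it varied least between groups among the 10 genes described here. Its mean level was 284 ± 17.3 CPM after CPTH6, 269 ± 48.8 after ML324, 288 ± 35.5 in PLD at 2 months, 229 ± 17.6 in PLD at 1 month, 242 ± 19.9 in WT at 2 months and 246 ± 24.1 in WT at 1 month (SD, n = 3 each), a spread of 1.26-fold between group means. No comparison passed the test, with 0.23 ± 0.13 between PLD and WT at 2 months and -0.07 ± 0.15 after CPTH6. Its exons share 8.92% of their bases with the antisense gene Gm29331, and counting without strand can add reads from that gene.

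Around this steady gene, the make-up of the cyclase family differed between groups. Adcy6 made up 66.3 ± 2.50% of the summed TPM of the 10 cyclase genes after CPTH6 and 66.5 ± 5.04% after ML324, against 52.2 ± 6.22% in untreated PLD at 2 months. The share was 40.5 ± 4.77% in PLD at 1 month, 33.9 ± 0.501% in WT at 2 months and 36.6 ± 12.2% in WT at 1 month. The summed level itself was 190 ± 14.9 TPM after CPTH6, 196 ± 27.2 after ML324, 279 ± 17.1 in PLD at 2 months, 303 ± 18.7 in PLD at 1 month, 422 ± 28.8 in WT at 2 months and 363 ± 34.5 in WT at 1 month. The larger share thus came with a smaller total, and Adcy6 itself stayed between 122 and 146 TPM in group means.

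Adcy4 (ENSMUSG00000022220.14, chromosome 14 from 55769057 to 55784095, minus strand) encodes a cyclase that G protein beta-gamma subunits stimulate, and it had the steepest fall of the 10 genes between PLD and WT at 2 months. It stood at 5.79, 7.23 and 6.18 CPM after CPTH6 and at 3.82, 15.3 and 3.27 CPM after ML324. It stood in untreated PLD at 17.2, 26.2 and 15.8 CPM at 2 months and 65.1, 42.5 and 83.04 CPM at 1 month. Levels in WT were 158, 205 and 154 CPM at 2 months and 111, 136 and 46.8 CPM at 1 month. The groups at 2 months were far apart, the PLD libraries at 2 months lay below those at 1 month, and at 1 month WT replicate 3 fell within the PLD range.

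The change between PLD and WT was -3.15 ± 0.39 at 2 months (edgeR adjusted p = 0.000259) and -0.61 ± 0.36 at 1 month (adjusted p = 0.335). The difference between these, the interaction of genotype and time, was -2.54 ± 0.52 and passed the test (edgeR adjusted p = 0.0256), as did 5.68% of all genes (2.55% higher and 3.13% lower). Within PLD, Adcy4 fell by 1.68 ± 0.38 on the log2 scale at 2 months against 1 month (edgeR adjusted p = 0.0251), a call that remained in 2 of 6 fits with a library left out. The change was -1.68 ± 0.50 after CPTH6 (edgeR adjusted p = 0.0387), a call lost without any 1 of the 6 libraries compared, and -1.42 ± 0.50 after ML324 (adjusted p = 0.0789), which became -2.47 (adjusted p = 0.000338) without ML324 replicate 2, the library at 15.3 CPM. DESeq2 called Adcy4 after ML324 with all libraries (-1.40, adjusted p = 0.0167). Without WT replicate 3, Adcy4 was also called at 1 month, at -0.93 (edgeR adjusted p = 0.0402).

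Endothelial markers moved with Adcy4. In PLD at 2 months 12 of 12 passed the test as lower than in WT, in the interaction 11 of 12 passed in the negative direction, and after CPTH6 and ML324 5 and 2 of 12 passed as lower. Per 1000 counts of Pecam1, an endothelial surface gene, Adcy4 had 147 to 209 counts after CPTH6, 178 to 217 after ML324, 153 to 218 in PLD at 2 months, 153 to 160 in PLD at 1 month, 155 to 186 in WT at 2 months and 139 to 158 in WT at 1 month. Mean CPM of Adcy4 spanned 26.9-fold over the same groups. Smooth muscle markers passed as lower too, for 8 of 8 in PLD at 2 months, 7 of 8 after CPTH6 and 4 of 8 after ML324. Stellate cell and fibroblast markers did so for 5, 12 and 12 of 12. In the interaction 0 markers of either list passed. Per 1000 counts of Acta2, Adcy4 had 24.2 to 93.9 counts in WT at 1 month and 150 to 210 after CPTH6. These ratios, too, were computed after the values had been seen and are descriptions. The part of endothelial cells and of these other cells in the Adcy4 changes was not tested.

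**Figure D3:**
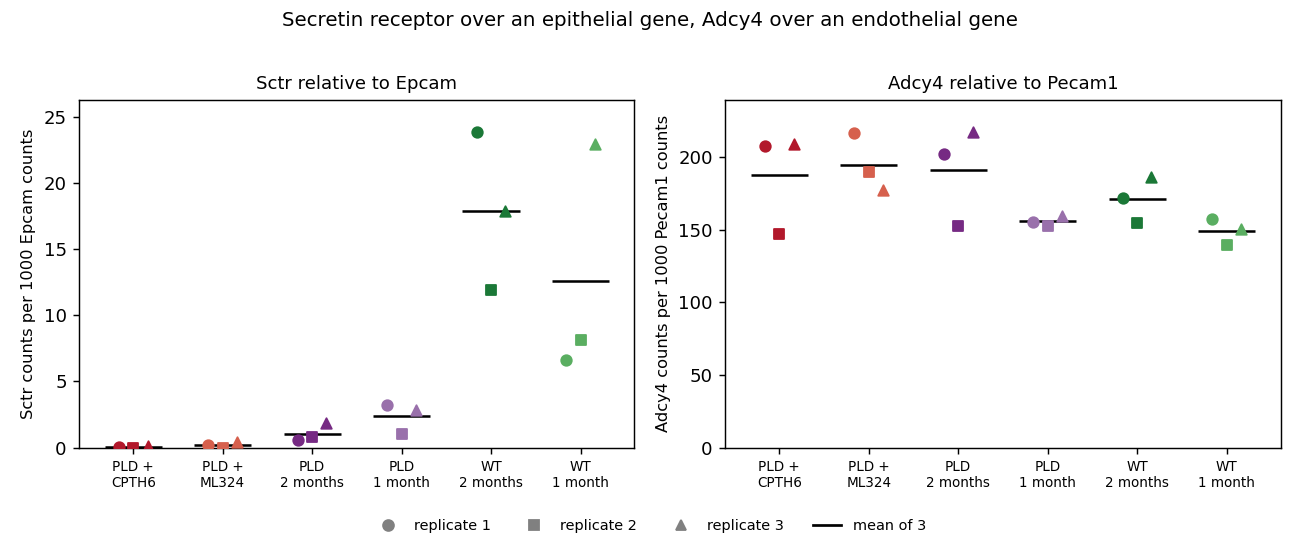
Counts of Sctr per 1000 counts of Epcam (left) and of Adcy4 per 1000 counts of Pecam1 (right), on vertical axes from 0, in the 6 groups (horizontal axes), with a point per library shaped by replicate number and a line at the mean of 3. The Sctr ratio lies between 6.63 and 23.9 in WT libraries and at 3.25 or below in PLD libraries, whereas the Adcy4 ratio stays between 139 and 218 in all 18. Epcam itself averaged 487 CPM in PLD and 130 CPM in WT at 2 months.

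Adcy5 (ENSMUSG00000022840.9, chromosome 16 from 35154877 to 35305738, plus strand) encodes the close relative of Adcy6 that is abundant in heart and striatum, and it was lower in PLD than in WT at each time and lower still after treatment. Levels were 4.58, 6.66 and 5.65 CPM after CPTH6 and 2.34, 7.32 and 2.97 CPM after ML324. Untreated PLD libraries had 17.8, 20.5 and 15.0 CPM at 2 months and 51.5, 48.7 and 68.0 CPM at 1 month. WT libraries had 96.2, 113 and 122 CPM at 2 months and 271, 211 and 59.9 CPM at 1 month. Among all genes with a mean of at least 1 CPM, ranges lay apart for 44.7% after CPTH6, 39.2% after ML324, 57.7% between genotypes at 2 months and 47% over time in PLD. The ranges of Adcy5 were apart for either compound against untreated PLD, for PLD against WT at 2 months and for PLD at 2 months against 1 month. They overlapped between the compounds, between WT at 2 months and 1 month, and between PLD and WT at 1 month, where WT replicate 3 fell among the PLD libraries.

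The change in Adcy5 between PLD and WT was -2.66 ± 0.43 at 2 months (edgeR adjusted p = 0.000922) and -1.67 ± 0.41 at 1 month (adjusted p = 0.0427). The call at 1 month was lost without any 1 of the 5 libraries other than WT replicate 3 (edgeR adjusted p up to 0.185), and without that replicate the change was -2.08 (adjusted p = 0.000229). Within PLD it fell by 1.65 ± 0.41 on the log2 scale at 2 months against 1 month (edgeR adjusted p = 0.0345), a call lost without any 1 of those 6 libraries. The interaction did not pass, at -0.99 ± 0.57 (edgeR adjusted p = 0.318). After CPTH6 the change against untreated PLD was -1.71 ± 0.36 (edgeR adjusted p = 0.00912) and after ML324 -2.08 ± 0.37 (adjusted p = 0.00546), and both calls held when any 1 of the compared libraries was left out. Within WT, without WT replicate 3 at 1 month, Adcy5 was called lower at 2 months at -1.08 (edgeR adjusted p = 0.0183).

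Smooth muscle markers moved with Adcy5. In PLD at 2 months 8 of 8 passed as lower than in WT, at 1 month 1 of 8, after CPTH6 7 of 8 and after ML324 4 of 8. Per 1000 counts of Acta2, the smooth muscle actin gene, Adcy5 had 119 to 194 counts after CPTH6, 68.3 to 122 after ML324, 89.4 to 133 in PLD at 2 months, 64.8 to 82.0 in PLD at 1 month, 76.4 to 84.0 in WT at 2 months and 59.2 to 120 in WT at 1 month, while its mean CPM spanned 43.0-fold. Other markers fell too. Endothelial markers passed as lower for 12 of 12 in PLD at 2 months, 5 after CPTH6 and 2 after ML324. Stellate cell and fibroblast markers did so for 5, 12 and 12 of 12. Per 1000 counts of Pecam1, Adcy5 had 136 to 191 after CPTH6, 90.9 to 161 after ML324, 119 to 209 in PLD at 2 months, 123 to 175 in PLD at 1 month, 85.4 to 148 in WT at 2 months and 193 to 385 in WT at 1 month. The part of these cells in the Adcy5 changes was not tested.

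Adcy9 (ENSMUSG00000005580.11, chromosome 16 from 4287529 to 4420498, minus strand) encodes a cyclase known for its weak response to forskolin, and its changes were small and differed in direction. It had 28.2, 22.1 and 26.0 CPM after CPTH6 and 28.5, 23.9 and 24.4 CPM after ML324. Without treatment, PLD libraries had 27.3, 30.8 and 26.1 CPM at 2 months and 23.0, 21.4 and 20.0 CPM at 1 month. WT libraries had 24.2, 25.2 and 26.0 CPM at 2 months and 32.3, 30.1 and 29.5 CPM at 1 month. By group mean PLD at 1 month was the lowest and WT at 1 month the highest, and these 2 groups did not overlap, while single libraries of other groups (CPTH6 replicate 2 and PLD replicate 2 at 2 months) fell within their ranges. At 2 months the PLD libraries lay just above those of WT.

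The change in Adcy9 was -0.50 ± 0.10 between PLD and WT at 1 month (edgeR adjusted p = 0.0241) and 0.13 ± 0.10 at 2 months (adjusted p = 0.335). The interaction was 0.63 ± 0.14 (edgeR adjusted p = 0.0336), and the rise within PLD at 2 months against 1 month was 0.39 ± 0.10 (adjusted p = 0.0394). These calls rest on few libraries: the first was lost without any 1 of the 5 libraries other than WT replicate 3 (adjusted p up to 0.131), the third without any 1 of 6 (up to 0.154), and the interaction held in 2 of 12 fits with a library left out (adjusted p 0.0291 to 0.0982). Neither compound gave a call, at -0.19 ± 0.14 for CPTH6 and -0.13 ± 0.14 for ML324.

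The promoters of Adcy5 and Adcy9 are set side by side because they are the cyclase windows at either end, one gene spanning 43.0-fold between group means and the other 1.43-fold. In Adcy9 the core TGACG lay once, 24 bases before the start (capitals), and in Adcy5 neither motif was found in the 250 bases searched. The windows are chr16:35154614-35154863 on the plus strand for Adcy5 and chr16:4420499-4420748 on the minus strand for Adcy9, with 78% and 78.8% G and C.
Adcy5 promoter: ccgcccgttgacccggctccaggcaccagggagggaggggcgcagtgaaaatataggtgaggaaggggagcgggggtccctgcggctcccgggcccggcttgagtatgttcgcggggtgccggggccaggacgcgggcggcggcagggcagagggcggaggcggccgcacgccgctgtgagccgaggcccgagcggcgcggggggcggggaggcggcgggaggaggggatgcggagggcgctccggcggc
Adcy9 promoter: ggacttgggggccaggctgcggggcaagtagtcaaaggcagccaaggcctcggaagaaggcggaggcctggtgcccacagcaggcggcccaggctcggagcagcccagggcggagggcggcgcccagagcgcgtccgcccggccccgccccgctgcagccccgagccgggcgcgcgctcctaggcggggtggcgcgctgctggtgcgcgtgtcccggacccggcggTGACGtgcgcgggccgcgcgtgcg
Of the other windows, those of Gpbar1, Adcy4 and Pde4d held neither motif, and 1 of the 4 windows of Pde4b held 1 core, 34 bases before its start.

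**Figure D4:**
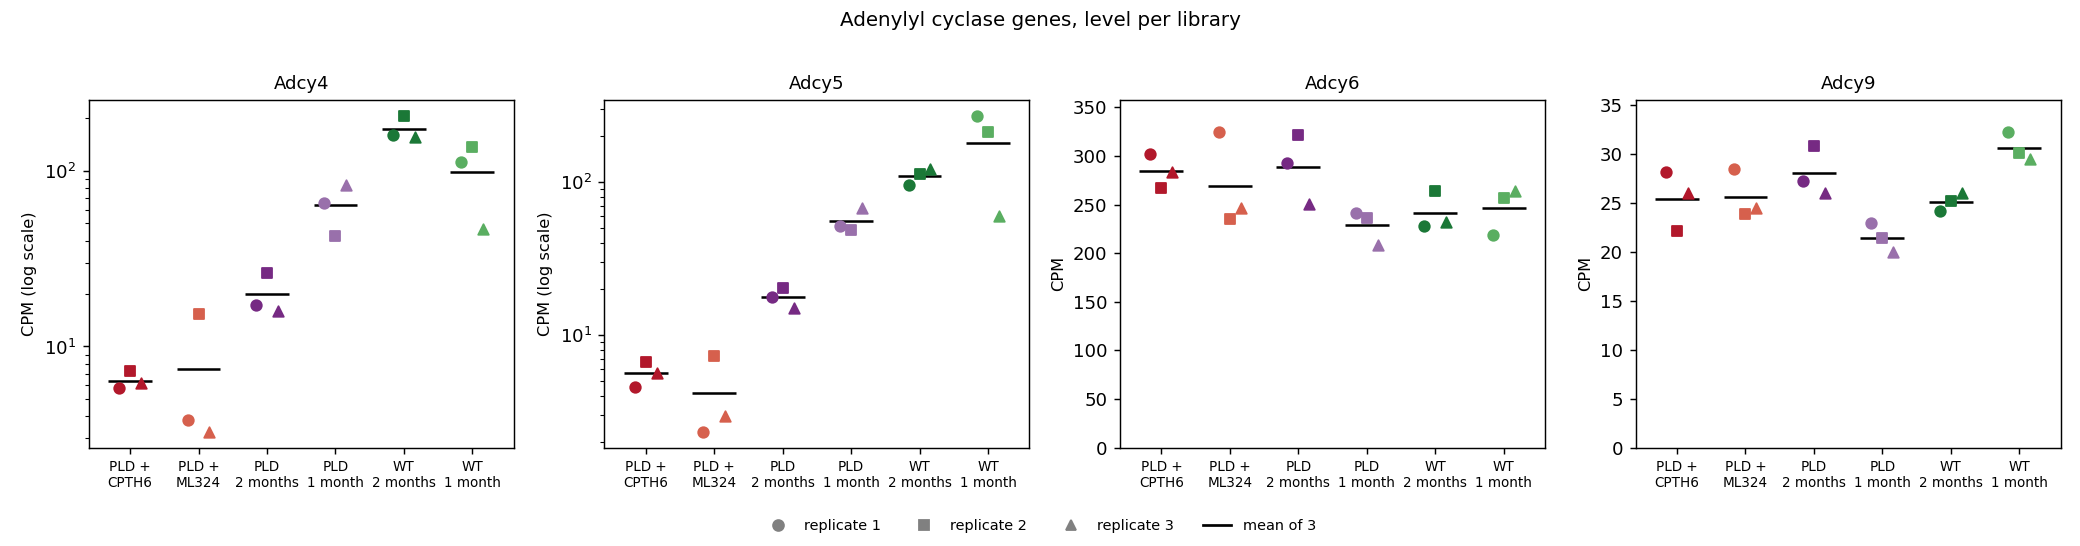
Level in CPM (vertical axes, log scale for Adcy4 and Adcy5, linear from 0 for Adcy6 and Adcy9) of the adenylyl cyclase genes in the 6 groups (horizontal axes), with a point per library shaped by replicate number and a line at the mean of 3. Adcy4 and Adcy5 are low after treatment and high in WT, Adcy6 stays near the same level in all groups, and Adcy9 is lowest in PLD at 1 month.

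Pde3a (ENSMUSG00000041741.10, chromosome 6 from 141249269 to 141507448, plus strand) encodes a phosphodiesterase that cyclic GMP inhibits and that is prominent in vascular smooth muscle and heart. It was lower in PLD than in WT at 2 months and had its lowest levels after treatment. Pde3a stood at 6.37, 5.17 and 6.18 CPM after CPTH6 and at 2.74, 11.2 and 4.24 CPM after ML324. In untreated PLD the values were 28.9, 40.2 and 33.3 CPM at 2 months and 86.0, 90.1 and 135 CPM at 1 month. In WT they were 127, 145 and 151 CPM at 2 months and 254, 256 and 77.7 CPM at 1 month. Treated libraries lay below untreated PLD, and PLD below WT at 2 months, while at 1 month WT replicate 3 was lower than every PLD library and the other WT libraries were higher.

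The change was -2.07 ± 0.38 between PLD and WT at 2 months (edgeR adjusted p = 0.00178) and -0.90 ± 0.36 at 1 month (adjusted p = 0.158), where it was called at -1.28 without WT replicate 3 (adjusted p = 0.00212). Against untreated PLD it was -2.58 ± 0.41 after CPTH6 (edgeR adjusted p = 0.00258) and -2.51 ± 0.42 after ML324 (adjusted p = 0.00401), and these calls held with any 1 library left out. Within PLD, the fall of 1.59 ± 0.37 on the log2 scale at 2 months against 1 month (edgeR adjusted p = 0.0275) was lost without any 1 of 6 libraries. Per 1000 counts of Acta2 the gene had 150 to 210 counts after CPTH6, 104 to 147 after ML324, 199 to 259 in PLD at 2 months, 120 to 162 in PLD at 1 month, 101 to 108 in WT at 2 months and 55.4 to 156 in WT at 1 month, beside a 33.2-fold span of mean CPM. Endothelial markers and stellate cell and fibroblast markers also fell in PLD at 2 months and after the compounds, as given for Adcy5. The part of smooth muscle cells and of these other cells in the Pde3a changes was not tested. The exons of Pde3a share 5.82% of their bases with the antisense gene Gm28523.

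Pde4b (ENSMUSG00000028525.16, chromosome 4 from 102087543 to 102607259, plus strand) encodes a cAMP-specific phosphodiesterase that rolipram inhibits, and it was the most abundant of the 3 phosphodiesterase genes in every group per unit length. It had 156, 295 and 178 CPM after CPTH6 and 177, 182 and 101 CPM after ML324. Its level in untreated PLD was 148, 109 and 114 CPM at 2 months and 275, 226 and 326 CPM at 1 month. Its level in WT was 193, 233 and 306 CPM at 2 months and 624, 439 and 177 CPM at 1 month. The PLD libraries at 2 months were below those of WT at 2 months and of PLD at 1 month, and CPTH6 libraries lay above them.

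The change in Pde4b was -1.01 ± 0.36 between PLD and WT at 2 months (edgeR adjusted p = 0.0461), a call lost without any 1 of the 6 libraries compared (adjusted p 0.0562 to 0.137). At 1 month it was -0.57 ± 0.36 (edgeR adjusted p = 0.363), and -0.92 without WT replicate 3 (adjusted p = 0.0192). Within PLD the change between 2 months and 1 month was -1.15 ± 0.36 (edgeR adjusted p = 0.068, DESeq2 adjusted p = 0.0154), and within WT it was called without WT replicate 3 at 1 month, at -1.08 (edgeR adjusted p = 0.0412). The change was 0.71 ± 0.27 after CPTH6 (edgeR adjusted p = 0.0883, DESeq2 adjusted p = 0.0322) and 0.31 ± 0.27 after ML324 (edgeR adjusted p = 0.455). Smooth muscle and endothelial markers were lower in PLD at 2 months, 8 of 8 and 12 of 12. After the compounds, where Pde4b did not fall, smooth muscle markers were lower for 7 of 8 genes with CPTH6 and 4 of 8 with ML324. The part of these cells in the Pde4b changes was not tested.

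Pde4d (ENSMUSG00000021699.17, chromosome 13 from 108449948 to 109953461, plus strand) encodes another rolipram-sensitive enzyme. It was called higher in PLD against WT at 2 months and after CPTH6, where Pde3a was lower. Pde3a was also called lower after ML324 and within PLD at 2 months against 1 month, where Pde4d was not called. Its levels were 48.4, 55.4 and 39.4 CPM after CPTH6 and 42.4, 39.7 and 32.5 CPM after ML324. Untreated PLD libraries had 33.0, 29.1 and 34.2 CPM at 2 months and 27.2, 33.8 and 26.6 CPM at 1 month. WT libraries had 20.0, 19.6 and 21.7 CPM at 2 months and 38.6, 25.7 and 25.4 CPM at 1 month. WT at 2 months was the lowest group and CPTH6 the highest, with no overlap with untreated PLD in either case. The change was 0.62 ± 0.16 between PLD and WT at 2 months (edgeR adjusted p = 0.0114) and -0.02 ± 0.16 at 1 month (adjusted p = 0.948). It was 0.52 ± 0.14 after CPTH6 (edgeR adjusted p = 0.0259), a call that remained in 1 of 6 fits with a library left out, and 0.25 ± 0.14 after ML324 (adjusted p = 0.24). Within PLD at 2 months against 1 month it was 0.14 ± 0.16 (edgeR adjusted p = 0.585). Cholangiocyte markers were higher for 10 of 12 genes in PLD at 2 months and 6 of 12 after CPTH6, and their part in the Pde4d changes was not tested.

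**Figure D5:**
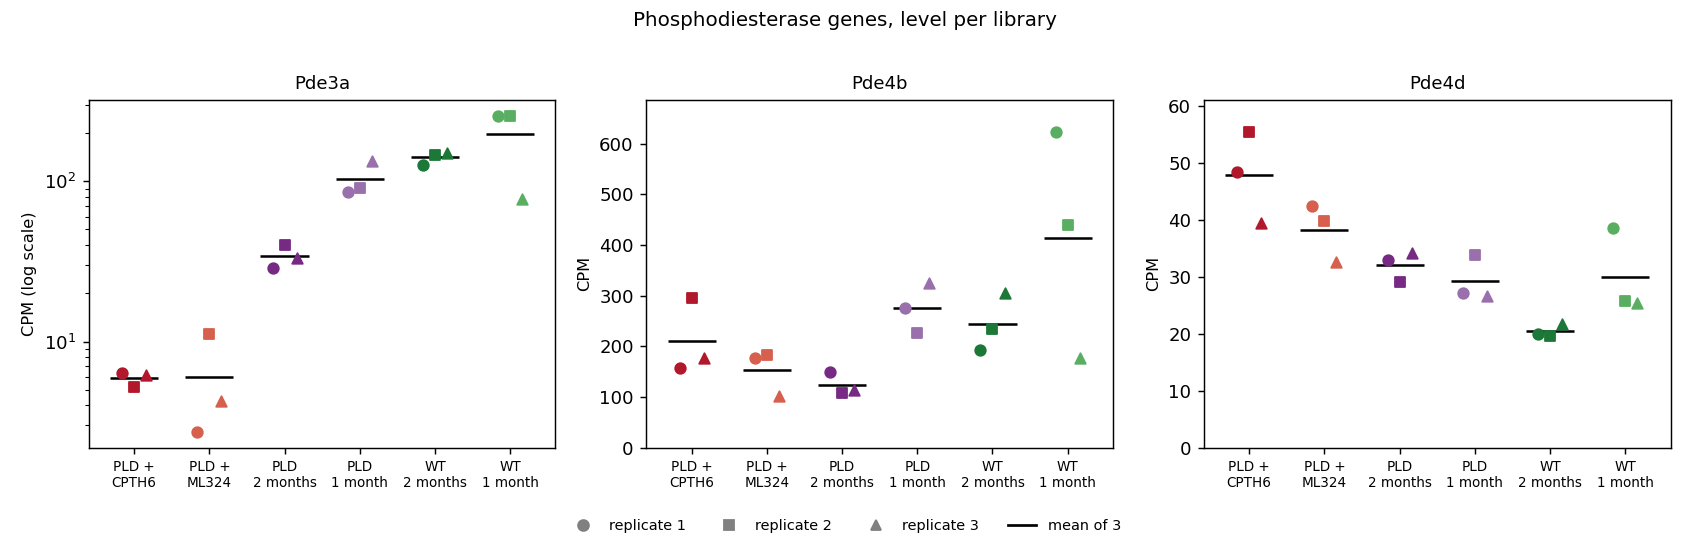
Level in CPM (vertical axes, log scale for Pde3a, linear from 0 for Pde4b and Pde4d) of the phosphodiesterase genes in the 6 groups (horizontal axes), with a point per library shaped by replicate number and a line at the mean of 3. Pde3a is lowest after treatment, Pde4b is lowest in untreated PLD at 2 months, and Pde4d is lowest in WT at 2 months.

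Of the summed TPM of 16 genes for cAMP-degrading phosphodiesterases, Pde3a made up 1.17 ± 0.321% after CPTH6, 1.39 ± 0.858% after ML324, 7.54 ± 1.5% in PLD at 2 months, 13.8 ± 1.78% in PLD at 1 month, 16.8 ± 0.802% in WT at 2 months and 16.7 ± 4.40% in WT at 1 month. Pde4d made up 9.74 ± 1.32%, 9.62 ± 0.854%, 7.49 ± 0.624%, 4.26 ± 1.14%, 2.58 ± 0.251% and 3.06 ± 1.01% in the same order. The 2 shares thus stood in opposite order in treated libraries, with Pde4d above Pde3a, and in WT and PLD at 1 month, with Pde3a above Pde4d, and were near equal in PLD at 2 months. The summed level was 123 ± 17.2 TPM after CPTH6, 111 ± 24.1 after ML324, 122 ± 7.11 in PLD at 2 months, 212 ± 34.2 in PLD at 1 month, 266 ± 25.4 in WT at 2 months and 299 ± 72.3 in WT at 1 month.

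CPTH6 and ML324, both titled 3 months and given at doses that the labels do not state, gave changes between -0.31 ± 0.60 (Gpbar1) and 0.39 ± 0.28 (Pde4b) for the 9 genes tested, none of them called. For Gpbar1 the 95% interval of the difference ran from -1.69 to 1.07 on the log2 scale, for Adcy4 from -1.50 to 0.97, for Adcy5 from -0.58 to 1.33 and for Pde3a from -1.14 to 0.98. The intervals were narrower for Adcy6 (-0.31 to 0.36) and Adcy9 (-0.38 to 0.25), and a missed threshold does not show that the compounds acted alike.

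Beyond the 10 genes, 99 other genes of the cAMP pathway in 11 lists were read in the same fits. Of 89 tested between PLD and WT at 2 months, 10 were higher and 35 lower, with a median of -0.60, beside 19.7% higher and 20.3% lower over all genes. Among those with a mean of at least 1 CPM, the 3 largest rises were in Ano1, a calcium-activated chloride channel of bile ducts (2.66 ± 0.30), Pkib, an inhibitor of protein kinase A (1.80 ± 0.44), and Adcy2, a calcium-insensitive cyclase (1.79 ± 0.31). The 3 largest falls were in the Gs-coupled receptor genes Glp1r (-4.77 ± 0.60) and Calcrl (-3.99 ± 0.38), for glucagon-like peptide and for adrenomedullin, and in the Gi-coupled receptor gene Adra2b (-3.67 ± 0.85), an adrenergic receptor. At 1 month 1 of 89 was higher, Ano1 (1.47 ± 0.28), and 2 lower, the anchoring protein gene Akap6 (-1.18 ± 0.30) and the adrenergic receptor gene Adrb1 (-1.17 ± 0.26), with a median of -0.31, beside 3% higher and 2.02% lower over all genes. With a library left out, the calls at 1 month remained in 2 of 6 fits for Ano1 and in 1 of 6 for Akap6 and for Adrb1.

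By role at 2 months, with all tested genes of a list counted, 9 of 12 other phosphodiesterase genes were lower in PLD and 0 higher, with a median of -1.27, and 6 of 15 Gs-coupled receptor genes were lower and 1 higher. Among the effectors of secretin 4 of 7 were higher and 1 lower. Over all genes tested, 19.7% were higher and 20.3% lower. Cholangiocyte markers were higher in the same comparison (10 of 12, median 2.07, against 0.39 for the effectors), endothelial (12 of 12) and smooth muscle markers (8 of 8) were lower, and their part in these lists was not tested. The 4 effectors were Ano1, Slc4a2 (0.39 ± 0.09), the carbonic anhydrase gene Car2 (1.62 ± 0.45) and the chloride cotransporter gene Slc12a2 (0.73 ± 0.23), and the lower one was the water channel gene Aqp1 (-3.14 ± 0.57), which endothelium also expresses. Of these, Car2, Slc12a2 and Aqp1 were named in this comparison after their values had been seen, as was Cftr, which was not called at 0.38 ± 0.40, with 14.3 ± 7.18 CPM in PLD and 10.8 ± 1.71 CPM in WT (SD, n = 3 each). Among the other cyclases, Adcy2 and Adcy7 (1.502 ± 0.29) were higher and 0 of 6 lower.

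Within PLD, at 2 months against 1 month, 4 of 89 were higher and 11 lower, with a median of -0.29, beside 4.38% higher and 5.23% lower over all genes. The prostaglandin receptor gene Ptger3 (1.84 ± 0.49), Pkib (1.58 ± 0.43) and Slc4a2 (0.41 ± 0.09) rose, and Glp1r (-2.73 ± 0.58), Calcrl (-2.48 ± 0.36) and the phosphodiesterase gene Pde1c (-2.05 ± 0.46) fell. With a library left out, the calls of Ptger3, Slc4a2 and Pde1c remained in 0 of 6 fits, that of Pkib in 1 and that of Glp1r in 3. Within WT, edgeR called 0 of 89, with a median of -0.12.

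After CPTH6, 7 of 80 pathway genes were higher and 29 lower than in untreated PLD, with a median of -0.30, and after ML324 5 were higher and 27 lower, with a median of -0.24. Over all genes the shares were 9.39% higher and 13.7% lower after CPTH6, and 7.96% and 11.4% after ML324, so the share of pathway genes that were higher was near that of all genes. Hcar2, a Gi-coupled receptor for hydroxybutyrate, rose by 1.47 ± 0.17 with CPTH6 and 1.32 ± 0.17 with ML324. Crem, a transcription factor of the Creb family, rose after CPTH6 (0.66 ± 0.19) and Car2 after ML324 (0.81 ± 0.19), calls that remained in 1 and in 4 of 6 fits with a library left out, as that of Adra2b after ML324 did in 1. The largest falls after CPTH6 were in Adcyap1r1 (-3.59 ± 0.56), Pth1r (-3.45 ± 0.47) and Pde10a (-3.04 ± 0.59), and after ML324 in Adra2b (-3.53 ± 0.98), Adcy7 (-2.87 ± 0.27) and Pth1r (-2.82 ± 0.46). Adcyap1r1 and Pth1r encode Gs-coupled receptors for the peptide Pacap and for parathyroid hormone. Between the compounds, edgeR called 0 of 77, with a median of -0.08. Stellate cell and fibroblast markers, which passed as lower for 12 of 12 genes after either compound, moved with these falls, with summed levels of 389 to 476 CPM after CPTH6, 298 to 1011 after ML324 and 3420 to 7702 in untreated PLD, and their part was not tested.

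For each of the 10 genes up to 2 genes with a similar profile are named, found among 13721 genes with a mean of at least 1 CPM by the smallest root mean square difference of centred log2 CPM over the 18 libraries. Libraries of a group share their state, so these are descriptions. Adcy4 was closest to She (0.17) and Kif26a (0.18), against an own SD of 1.93. For Pde3a the neighbour Gucy1b1 stood at 0.23, against 2.13, and Adcy5 was closest to Olfr1033 (0.21) and Slit3 (0.28), against 2.10. These 3 genes had near neighbours relative to their own spread. Gpbar1 was closest to the cyclase gene Adcy7 (0.47) and to Ptn (0.52), against 1.17, and Sctr to Tenm4 (0.75) and Spns2 (0.82), against 1.78. The neighbours were Crp and Panx2 for Sstr2 (0.34 each, against 0.69), Gtf3c1 and Hectd4 for Adcy6 (0.10 each, against 0.18), Klhdc1 and Irf3 for Adcy9 (0.14 each, against 0.18), Cald1 and Pkia for Pde4b (0.29 and 0.31, against 0.67), and Sdc4 and Ubap1 for Pde4d (0.14 and 0.16, against 0.41). Adcy7 shared the order of Gpbar1 in level, with 14.1 ± 1.68 CPM after CPTH6, 14.8 ± 3.95 after ML324, 108 ± 35.0 in PLD at 2 months, 101 ± 9.06 in PLD at 1 month, 37.3 ± 5.79 in WT at 2 months and 48.3 ± 18.7 in WT at 1 month (SD, n = 3 each).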

How the data were processed

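RNA-seq libraries of Epcam-selected mouse cholangiocytes were compared in 6 groups of 3. The authors deposited whole counts of read pairs per gene, made with featureCounts 1.6.0 without a strand option on GENCODE vM25 and mm10, per the file headers. STAR 2.7.4a, SAMtools 1.12 and DESeq2 1.26.0 appear in the submitters' processing notes, without their roles. Without strand, reads of a gene and its antisense partner cannot be told apart. Symbols were matched by Ensembl ID for 55141 of 55401 genes.

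The main test on these deposited counts used R 4.3.3, edgeR 4.0.16 and limma 3.58.1, with filterByExpr, TMM, quasi-likelihood F-test and Benjamini-Hochberg adjustment over all genes tested, with a call at an adjusted p under 0.05. One fit held the 12 untreated libraries (8 residual degrees of freedom), one the treated libraries and PLD at 2 months (9 libraries, 6 degrees) and one the treated libraries (6 libraries, 4 degrees). CPM uses TMM-scaled library sizes, log2 CPM a prior count of 2, and TPM the deposited gene length. Standard errors were derived from each F statistic and its fold change. Replicates of a group differed by more than sampling noise (chi-square per degree of freedom 16.4 to 196), so none was treated as a second deposit of another, which does not show that they came from separate animals. Floors for counts of 0 cover counting error alone, whereas the intervals between compounds rest on the fit's standard errors and so include the spread between libraries. The fits were tested on simulated data.

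The 10 genes and all lists were chosen with earlier results of these data known. Values are given for each of the 10, for the 3 called pathway genes with the largest change in each direction and a mean of at least 1 CPM, and for the 2 genes with the most similar profile, unnamed gene models left out. Some of these genes are not reported here. Alternatives were DESeq2 1.42.0, RLE factors, library size alone, no filter, other sets of libraries, a replicate block and each library left out in turn. Promoter windows come from RefSeq, GRCm38.p6.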

Additional observations from a re-analysis of the deposited data

Results flagged for a closer look

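Of all genes tested, 5.68% passed for the interaction of genotype and time (2.55% higher and 3.13% lower). The effect of PLD against WT differed between 2 months and 1 month for 2 of the 10 genes, by edgeR's test of the interaction. It was -2.54 ± 0.52 for Adcy4 (adjusted p = 0.0256), negative at both times and larger at 2 months, a call that remained in 7 of 12 fits with a library left out. It was 0.63 ± 0.14 for Adcy9 (adjusted p = 0.0336), whose level was lower in PLD at 1 month, a call that remained in 2 of 12.

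Of 89 pathway genes tested, 4 were higher and 8 lower in the interaction, with a median of -0.26, beside 2.55% and 3.13% of all genes. Among the pathway genes named by the same rule as in the comparisons, the interaction was positive for Car2 (2.57 ± 0.63, edgeR adjusted p = 0.0414), Slc12a2 (1.26 ± 0.33, adjusted p = 0.0499) and the prostaglandin receptor gene Ptger4 (1.14 ± 0.28, adjusted p = 0.042). It was negative for Glp1r (-4.46 ± 0.76, edgeR adjusted p = 0.016), Calcrl (-3.78 ± 0.50, adjusted p = 0.00768) and Pde1c (-2.60 ± 0.61, adjusted p = 0.0378). With a library left out, these calls remained in 2 of 12 fits for Car2, 1 for Slc12a2, 2 for Ptger4, 11 for Glp1r and 2 for Pde1c. Endothelial markers had a called negative interaction in 11 of 12 genes. Cholangiocyte markers had a positive one in 12 of 12, with a median of 1.29, of which 1 was called. Their part in these values was not tested.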

How the results depend on the processing

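No called change of the genes printed reversed under the alternatives. Of 816 single-gene results under other settings, 755 kept their side of the threshold, 39 lost a call and 22 gained one, and of 756 with a library left out, 591 kept it, 159 lost a call and 6 gained one. Between PLD and WT at 1 month, 2 of the 10 genes were called beside 5.03% of all genes, and 1 with the replicate block beside 3.37%. With only the libraries compared there were 0, beside 0.173%. Without both libraries that stand apart there were 4, beside 19.8%. Those libraries are the third of WT at 1 month by its markers and the first of WT at 2 months by its number of genes with a count. That alternative was chosen after seeing the data. Within PLD over time 4 were called beside 9.61% of all genes, and 1 with the replicate block beside 5.44%. Within WT 0 were called beside 0.0507% of all genes. Without the filter on low counts 1 was called, Adcy4 (0.84, edgeR adjusted p = 0.015), beside 2.71%. In the interaction 2 were called beside 5.68% of all genes, and 1 with library size alone (6.09%) or the replicate block (2.4%).

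With each library left out in turn, the calls ran from 0 to 5 for PLD against WT at 1 month, 5 to 5 at 2 months, 0 to 1 within PLD, 0 to 2 within WT, 0 to 2 for the interaction, 3 to 4 for CPTH6, 2 to 4 for ML324 and 0 to 0 between the compounds. The shares of all genes called ran in the same order from 0.535% to 18.8%, 28.9% to 34.3%, 0.729% to 3.48%, 0% to 2.1%, 0.543% to 7.63%, 14.7% to 19.5%, 11.4% to 18% and 0% to 0.0176%. The 5 at 1 month and the 2 within WT came without WT replicate 3 at 1 month, as did the highest shares there, 18.8% and 2.1%. Where a group was left with 2 libraries, the fit pools their spread with the other groups.

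Replicate numbers of the titles showed no clear pairing of the libraries. For 27 pairs of same-numbered libraries from different groups, deviations were correlated at -0.308 to 0.301 (median 0.00499), above 0.1 in 8. Differently numbered pairs ran from -0.353 to 0.331. Deviations from a mean of 3 libraries depend on each other, so this check cannot show that no pairing was made. The block left 6 calls at 2 months (36.5% of all genes), 5 for CPTH6 (21.8%), 4 for ML324 (18.2%) and 0 between the compounds (0.00625%) and within WT (0%). It ended the call of Pde4b at 2 months (-1.04, edgeR adjusted p = 0.0613) and added Sctr there (-2.32, adjusted p = 0.0276) and Adcy4 after ML324 (-1.62, adjusted p = 0.0199). Library size alone moved the median of all genes by -0.108 at 2 months and by -0.103 in the interaction, and ended the CPTH6 call of Pde4d (0.42, edgeR adjusted p = 0.0631). Counts of Sctr (0 to 189 per library) and Sstr2 (16 to 90) limit what could be detected for these genes.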
